A study of Mus musculus with 12 samples.

Results

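The genes described here are 36 mouse genes whose products fold proteins in the endoplasmic reticulum (ER) or remove misfolded ones from it, chosen by name from the 55401 genes of a count table. They were 10 chaperones and cochaperones, 7 disulfide isomerases, 3 prolyl isomerases and 5 lectins and glucose-trimming enzymes of glycoprotein quality control, together 25 folding genes, and 11 genes of ER-associated degradation (ERAD). Each symbol matched a single Ensembl identifier, and all 36 passed the filter on low counts. RNA was sequenced from wild-type mouse Th17 cells labelled as lymph node T cells differentiated from naive T cells. The groups were cells given Kira8, cells given Stattic, cells given both (Kira8+Stattic), each for 4 h, and cells labelled None, with 3 libraries per group. All groups shared the wild-type genotype and the differentiation step. The labels state neither whether None received a solvent nor whether replicates were separate cultures or animals, so p-values measure the spread between these libraries, which may be technical.

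Secreted and membrane proteins enter the ER unfolded. BiP, encoded by Hspa5, binds them with the help of J-domain cochaperones, disulfide isomerases pair their cysteines, and the lectins calnexin and calreticulin retain glycoproteins until they fold. Proteins that fail are trimmed by EDEM mannosidases, recognised by the lectins OS9 and ERLEC1, and passed to the cytosol through the HRD1 ubiquitin ligase (Syvn1), its partner SEL1L and the derlins. When unfolded proteins accumulate, the sensors IRE1alpha (Ern1), ATF6 and PERK (Eif2ak3) start the unfolded protein response, in which spliced XBP1 and cleaved ATF6 activate many of these genes. Kira8 inhibits IRE1alpha, whose RNase starts Xbp1 splicing. Stattic inhibits STAT3, a transcription factor needed for Th17 differentiation.

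Kira8 replicate 2 and Stattic replicate 2 stood apart from the other 10 libraries. Their totals were 19813462 and 9275672 counts, against 51669791 to 85890966 in the other 10, and mitochondrial transcripts took 61.5% and 10.7% of their counts, against 3.38% to 5.22%. The 36 genes together took 0.0348% and 0.148% of counts there, against 0.492% to 0.909%. Of the 36, 33 were lower in Kira8 replicate 2 than in both other Kira8 libraries, and 29 lower in Stattic replicate 2 than in both other Stattic libraries. Results below come from the other 10 libraries, and counts from all 12 stand beside them. Levels are CPM, counts scaled to library size with TMM. A gene was called when its adjusted p in edgeR's quasi-likelihood test was under 0.05 over all 21239 genes tested, and each change is a log2 ratio ± standard error.

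The Th17 label was checked against 8 markers of Th17 and CD4 T cells, all of which had counts in the 10 libraries. Their summed level was 1067 to 1118 CPM with Kira8, 1266 to 1317 with Stattic and 1231 to 1305 with both, against 1205 to 3186 in None. Of the 8, 3 fell and 1 rose with Kira8, and 4 fell and 2 rose with Stattic and also with both. Genes listed as markers of other cells had counts too, which by itself does not show that those cells were present. The summed level of 7 B cell markers was 150 to 176 CPM with Kira8, 67.1 to 126 with Stattic and 66.9 to 120 with both, against 279 to 358 in None. Of these 7, 4 fell with Kira8, 7 with Stattic and 6 with both. The sum of 7 CD8 T and NK cell markers was 52.9 to 66.8 CPM with Kira8, 119 to 161 with Stattic and 60.3 to 95.1 with both, against 173 to 285 in None. Of the 6 that could be tested, 4 fell and 0 rose with Kira8, 1 fell and 1 rose with Stattic, and 3 fell and 1 rose with both. The sum of 6 plasma cell markers was 1442 to 1477 CPM with Kira8 and 793 to 852 with Stattic. It was 692 to 709 with both and 1310 to 1690 in None. Most of that sum was Irf4, at 1285, 1650 and 1555 CPM in None, so the sum mostly follows that gene. Tnfrsf17 was at most 0.115 CPM and Jchain at most 8.46 CPM in the 10 libraries. Prdm1 was at 42.5 and 53.5 CPM with Stattic and at 8.16, 16.3 and 9.89 in None. Sdc1 was at 26.2 and 22.2 CPM with Stattic and at 10.4, 12.5 and 9.69 in None. Of the 5 plasma cell markers tested, 1 fell and 0 rose with Kira8, and 2 fell and 2 rose with Stattic and also with both. Of 6 myeloid markers 0 were called with Kira8, and 2 rose with Stattic and with both. Of 4 epithelial and stromal markers tested, 1 fell with Kira8, 1 rose with Stattic and 2 rose with both. The part of any such cells in the changes below was not tested. In bulk RNA fewer cells of a type and less RNA per cell cannot be told apart.

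Per kilobase of exon, the most abundant members in None were Hspa5 at 269 ± 107 CPM per kb, Calr at 237 ± 36.8, Pdia3 at 194 ± 31.4, Hsp90b1 at 184 ± 63.3 and P4hb at 162 ± 11.1 (SD, n = 3). These neighbours in the order do not differ beyond their spread. The highest ERAD member was Os9, the lectin that hands glycoproteins to HRD1, at 46.2 ± 5.58 CPM per kb, and the 10 highest were all folding genes. Derl3 and Pdia5 were low, at 1.19 ± 0.221 and 1.09 ± 0.0628 CPM per kb. Fkbp14, a prolyl isomerase, had 0 counts in both Kira8 libraries and at most 13 in any of the other 8, and is given no fold change. None replicate 2 was the highest of the None libraries for 24 of the 36 members, 17 of them folding genes.

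Promoters of ER chaperone genes can hold the ER stress response element (ERSE), which in mammals is bound by the factor NF-Y together with ATF6 or XBP1. The letters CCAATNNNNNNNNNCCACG were searched on both strands of RefSeq windows (GRCm38.p6) reaching from 250 bases before to 50 bases after a gene's start. They occurred in 39 of 32851 windows of all genes (0.119%), and in 9 of the 39 windows of members. By gene, 9 of the 32 members with a window held an ERSE, 7 of 23 folding and 2 of 9 ERAD genes. The elements are printed in the direction of CCAAT, with the fixed letters in capitals, because they are the stretch that these 9 members share.
Hspa5, chr2:34772025-34772043, plus strand: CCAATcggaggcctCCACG
Calr, chr8:84847075-84847093, plus strand: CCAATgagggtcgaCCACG
Canx, chr11:50325800-50325818, minus strand: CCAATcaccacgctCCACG
Pdia6, chr12:17266491-17266509, plus strand: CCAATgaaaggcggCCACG
Dnajc3, chr14:118937827-118937845, plus strand: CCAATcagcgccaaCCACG
Creld2, chr15:88819520-88819538, minus strand: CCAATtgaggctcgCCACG
Hsp90b1, chr10:86705638-86705656, minus strand: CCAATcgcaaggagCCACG
Hsp90b1, chr10:86705533-86705551, plus strand: CCAATcgtgcctcaCCACG
Derl3, chr10:75893242-75893260, minus strand: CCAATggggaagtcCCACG
Syvn1, chr19:6046532-6046550, plus strand: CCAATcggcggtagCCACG

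Whole windows are shown for a pair of folding genes that fell with Kira8, Hspa5 and Pdia6, and for Syvn1, an ERAD gene with the same element that was called in no comparison. Capitals mark the ERSE letters, and in Hspa5 also TGACGTG, the core of the UPR element that binds XBP1 and ATF6.
Hspa5, chr2:34771840-34772139, plus strand: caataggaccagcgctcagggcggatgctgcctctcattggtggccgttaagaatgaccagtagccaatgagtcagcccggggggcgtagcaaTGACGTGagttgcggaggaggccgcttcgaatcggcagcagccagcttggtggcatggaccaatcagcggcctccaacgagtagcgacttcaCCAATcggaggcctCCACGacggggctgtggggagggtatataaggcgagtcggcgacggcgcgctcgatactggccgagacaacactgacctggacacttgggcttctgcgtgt
Pdia6, chr12:17266339-17266638, plus strand: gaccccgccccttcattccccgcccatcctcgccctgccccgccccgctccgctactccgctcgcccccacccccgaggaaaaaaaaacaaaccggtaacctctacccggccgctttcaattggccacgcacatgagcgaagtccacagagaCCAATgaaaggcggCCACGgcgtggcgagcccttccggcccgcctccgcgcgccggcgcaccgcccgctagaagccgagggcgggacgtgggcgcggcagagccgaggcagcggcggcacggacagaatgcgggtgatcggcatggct
Syvn1, chr19:6046326-6046625, plus strand: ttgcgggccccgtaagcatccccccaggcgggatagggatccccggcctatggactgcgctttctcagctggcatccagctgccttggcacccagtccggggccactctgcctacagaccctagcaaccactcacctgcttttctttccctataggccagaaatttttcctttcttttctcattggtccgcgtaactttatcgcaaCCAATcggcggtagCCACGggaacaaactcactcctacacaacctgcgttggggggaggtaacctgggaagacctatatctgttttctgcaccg

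The ERSE of Hspa5 began 65 bases before the start, that of Pdia6 98 bases before and that of Syvn1 44 bases before. The core TGACGTG occurred in the windows of Hspa5, Txndc5 and Txndc11 and in 2.01% of all windows. Part of the ERSE, CCACG, was in 29 of the 39 member windows and in 32.8% of all windows. A related element, ERSE-II, written ATTGGNCCACG, was in 0.0365% of all windows and in those of a chaperone and an ERAD gene that moved in opposite directions with Stattic.
Herpud1, chr8:94386377-94386387, plus strand: ATTGGgCCACG
Dnajb11, chr16:22857852-22857862, plus strand: ATTGGcCCACG

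The windows of Sdf2l1 and Pdia4 held none of the 3 motifs in full, which says only that these letters are not in those windows. No window was at hand for Manf, Hyou1, Derl1 and Erlec1, which are not part of these counts.

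Kira8 was set against None to ask what blocking IRE1alpha does to the folding and degradation genes. With Kira8, 14 of the 25 folding genes fell and 0 rose, whereas 0 of the 11 ERAD genes fell and 2 rose. Over all genes tested, 19.3% were called, 9.59% lower and 9.70% higher. The median change was -0.82 for folding genes (-0.81 without Fkbp14), 0.18 for ERAD genes and 0 for all genes tested, and folding minus ERAD was -1.01. Groups did not overlap for 19 folding genes lower, among them Fkbp14 with 0 counts in both Kira8 libraries, and for 2 higher. The same held for 0 ERAD genes lower and 4 higher, against 22.4% of all genes lower and 25.3% higher.

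Among the chaperones 8 of 10 fell. Sdf2l1, a subunit of an ER chaperone complex that holds BiP clients (ENSMUSG00000022769, chromosome 16, 17130138 to 17132383 in mm10), was at 7.42 and 6.88 CPM with Kira8 and at 27.9, 27.0 and 25.8 in None. Both Kira8 libraries kept lay far below every None library. The change was -1.91 ± 0.17, 3.76-fold lower (adjusted p = 5.85e-05). In the libraries set aside Sdf2l1 was higher by CPM without TMM scaling. It was at 24.1 in Kira8 replicate 2, against 7.71 and 7.15 in the other Kira8 libraries and 30.8, 27.9 and 27.0 in None. In Stattic replicate 2 it was at 88.6, against 11.7 and 10.7 in the other Stattic libraries. With all 12 libraries its change was 0.61 for Kira8 and 0.69 for Stattic, neither called.

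Hyou1, the ER chaperone GRP170 that exchanges the nucleotide of BiP, was at 124 and 125 CPM with Kira8 and at 230, 419 and 288 in None (-1.33 ± 0.22, adjusted p = 0.00170). Hspa5 itself (ENSMUSG00000026864, chromosome 2, 34771970 to 34777547) was at 474 and 482 CPM with Kira8 and at 907, 1660 and 846 in None. The groups do not overlap, and None replicate 2 stood further above the other None libraries than those stood above Kira8. The Hspa5 change was -1.25 ± 0.29 (adjusted p = 0.00943), and its call ended without Kira8 replicate 1 (0.0815) or 3 (0.0818).

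Manf, a small secreted cofactor of BiP, fell by 1.31 ± 0.22, and the cochaperones Dnajb11 and Dnajc3 fell by 1.12 ± 0.19 and 0.82 ± 0.17 on the log2 scale. Creld2 fell by 1.17 ± 0.25 and Hsp90b1, the ER form of HSP90, by 0.91 ± 0.24. Dnajb9 and Dnajc10, J-domain proteins that also feed clients to degradation, were the 2 chaperones not called, with changes of 0.46 ± 0.22 (adjusted p = 0.166) and 0.50 ± 0.16 (0.0510). Both lay above all None libraries, against the direction of the other 8.

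Of the 7 disulfide isomerases 5 fell. Pdia4 (ENSMUSG00000025823, chromosome 6, 47796141 to 47813430) was at 38.0 and 33.3 CPM with Kira8 and at 123, 145 and 94.5 in None, 3.39-fold lower (-1.76 ± 0.19, adjusted p = 0.000165). Pdia6, whose window is printed above, was at 91.7 and 82.7 CPM with Kira8 and at 216, 286 and 176 in None (-1.37 ± 0.22, adjusted p = 0.00142). Txndc5 was at 56.6 and 52.7 CPM with Kira8 and at 101, 115 and 96.9 in None (-0.94 ± 0.15, adjusted p = 0.00111). Pdia5 and Pdia3 also fell, by 1.47 ± 0.34 and 0.78 ± 0.18, while P4hb, the abundant isomerase PDI, was at 397 and 364 CPM with Kira8 and at 433, 496 and 466 in None and was not called (-0.29 ± 0.16, adjusted p = 0.237).

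The 3 prolyl isomerases were not called. The change of Ppib, cyclophilin B, was -0.31 ± 0.17 (adjusted p = 0.235) and that of Fkbp2 -0.59 ± 0.30 (0.200). In glycoprotein quality control Calr, the lectin calreticulin, fell, at 379 and 406 CPM with Kira8 and 598, 801 and 648 in None (-0.80 ± 0.17, adjusted p = 0.00574). Its membrane-bound partner Canx lay below every None library but was not called (-0.49 ± 0.19, adjusted p = 0.0966). Uggt1, which marks misfolded glycoproteins for another round of folding, and the glucosidase II subunits Ganab and Prkcsh had changes of -0.23, 0.14 and -0.19.

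Of the 11 ERAD genes 2 were called with Kira8, both higher. Edem1, a mannosidase that commits glycoproteins to degradation, was at 287 and 297 CPM with Kira8 and at 156, 228 and 204 in None, 1.49-fold higher (0.57 ± 0.17, adjusted p = 0.0356). Erlec1 was at 36.8 and 33.7 CPM with Kira8 and at 26.4, 23.9 and 23.2 in None (0.52 ± 0.17, adjusted p = 0.0449). Each was called in 3 of the 10 fits that leave out 1 library. The other 9 were not called. Syvn1, the ligase at the centre of the pathway, was at 83.4 and 79.0 CPM with Kira8 and at 72.7, 79.0 and 73.3 in None, and its partner Sel1l had a change of 0.10 ± 0.22 (adjusted p = 0.827).

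**Figure D1:**
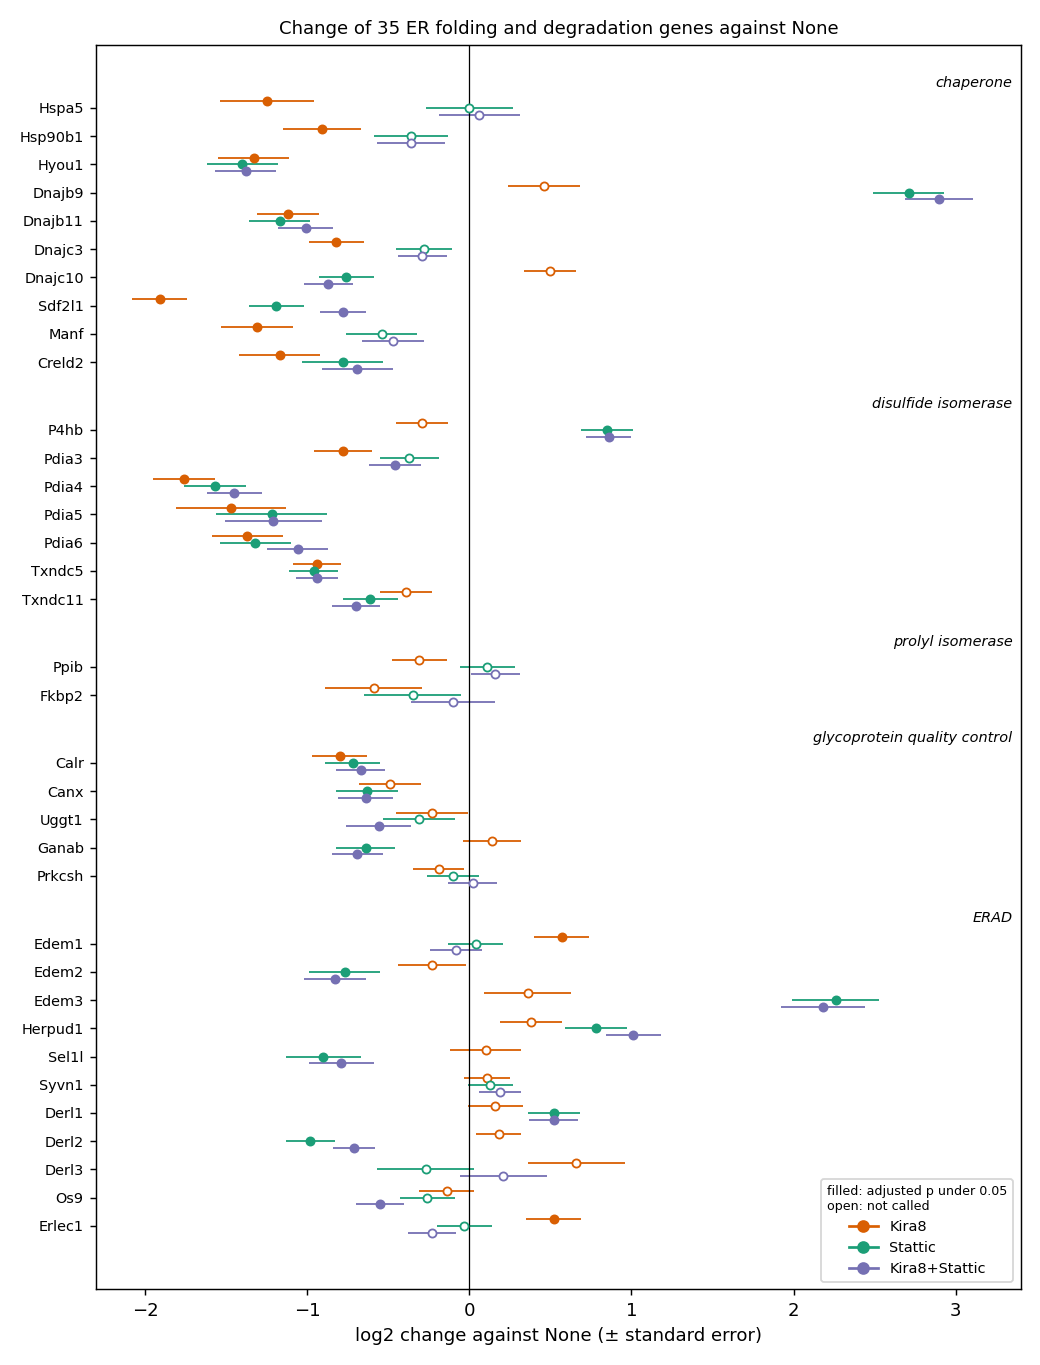
The plot shows the log2 change ± standard error against None (horizontal axis) of 35 members, grouped by role, with Kira8 in orange, Stattic in green and both in purple; Fkbp14 is left out, and filled points had an adjusted p under 0.05. With Kira8 14 folding genes lie to the left as filled points and the ERAD genes lie between -0.23 and 0.66, while Dnajb9 and Edem3 lie above 2 with Stattic alone or with both.

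In the fit of all 12 libraries 0 of the 36 members were called with Kira8, and 7 had an unadjusted p under 0.05, all of them folding genes, against 12.8% of all genes. The folding median still lay below the ERAD median there, by a difference of -1.10. With voom (limma), weighting each of the 12 libraries by its quality, 15 members were called, all lower, of which 14 were among the 16, and 22.3% of all genes were called, 11.6% lower. Within the 10 libraries, 7 members were called whichever library was left out, namely Hyou1, Dnajb11, Sdf2l1, Manf, Pdia4, Pdia6 and Txndc5, and 9 members were called when Kira8 replicate 1 was left out and 7 when replicate 3 was. The calls over all genes dropped too, to 7.70% and 7.03%.

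**Figure D2:**
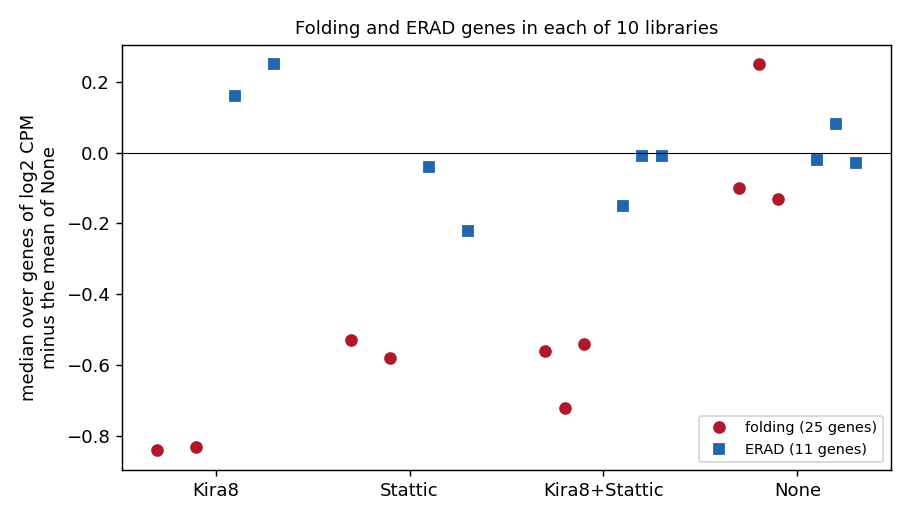
Each point is 1 of the 10 libraries: the median over the 25 folding genes (red circles) or the 11 ERAD genes (blue squares) of log2 CPM minus the mean of None, by group. Folding medians were -0.84 and -0.83 with Kira8, -0.53 and -0.58 with Stattic, -0.56, -0.72 and -0.54 with both and -0.10, 0.25 and -0.13 in None, and ERAD medians stayed between -0.22 and 0.25.

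By promoter, 6 of the 9 members with an ERSE fell with Kira8, 0 rose, and their median change was -0.82. Of the 23 with a window and no ERSE, 6 fell, 1 rose, and the median was -0.23. The median of all 25 folding genes was also -0.82, and whether the element bears on these changes was not tested. Derl3 and Syvn1, the ERAD genes that hold one, had changes of 0.66 ± 0.30 and 0.11 ± 0.14, and Sdf2l1 and Pdia4, with the smallest adjusted p, held none. With Stattic 4 of the 9 and 11 of the 23 fell, with medians of -0.36 and -0.37. With both, 4 of the 9 and 14 of the 23 fell, with medians of -0.36 and -0.56, so the order of the medians seen with Kira8 was not seen there. Lower calls over all genes were 9.59% with Kira8, 18.9% with Stattic and 20.0% with both.

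Stattic was set against None to ask what inhibiting STAT3 does to the same genes. With Stattic 16 members fell and 5 rose, and 39.0% of all genes were called, 18.9% lower and 20.1% higher, so the share of members higher was not above that of all genes. Folding genes fell in 13 cases and rose in 2, and ERAD genes fell in 3 and rose in 3. Groups did not overlap for 18 members lower and 5 higher, against 27.5% of all genes lower and 30.8% higher. The medians were -0.61 for folding genes, -0.03 for ERAD genes and 0.08 for all genes. In all 12 libraries 0 members were called and 4 had an unadjusted p under 0.05, against 19.6% of all genes, and the weighted voom fit called 18 members and 37.1% of all genes. Of the 21 calls 12 held whichever library was left out.

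The largest change with Stattic among the members was a rise. Dnajb9, the cochaperone ERdj4 that recruits BiP to IRE1alpha (ENSMUSG00000014905, chromosome 12, 44205559 to 44210326), was at 125 and 169 CPM with Stattic and at 20.5, 28.5 and 18.5 in None. Both Stattic libraries lay several-fold above all None libraries, and the change was 2.71 ± 0.22, or 6.53-fold (adjusted p = 4.98e-06). Edem3, another EDEM mannosidase (ENSMUSG00000043019, chromosome 1, 151755371 to 151822051), was at 171 and 287 CPM with Stattic and at 34.6, 58.4 and 50.5 in None, 4.78-fold higher (2.26 ± 0.27, adjusted p = 6.68e-05). The 2 Stattic libraries differed between themselves, but neither came near None.

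P4hb was at 849 and 833 CPM with Stattic and at 433, 496 and 466 in None (0.85 ± 0.16, adjusted p = 0.00105). Herpud1, a membrane protein that assembles the HRD1 complex and whose window holds an ERSE-II, was at 125 and 116 CPM with Stattic and at 68.7, 87.2 and 54.5 in None (0.78 ± 0.19, adjusted p = 0.00631). Derl1, a derlin, rose by 0.52 ± 0.16, a call that ended without None replicate 3, Stattic replicate 1 or Stattic replicate 3. The EDEM family split, since Edem1 was not called (0.04 ± 0.17) and Edem2 fell by 0.77 ± 0.22.

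Of the chaperones that fell with Kira8, Hyou1, Dnajb11, Sdf2l1 and Creld2 also fell with Stattic, by 1.40 ± 0.22, 1.17 ± 0.19, 1.19 ± 0.17 and 0.78 ± 0.25. Hspa5 did not follow them. It was at 1009 and 1267 CPM with Stattic and at 907, 1660 and 846 in None, and the 95% interval of its change ran from -0.60 to 0.60. Dnajc10, an ER reductase that helps ERAD, fell with Stattic, at 56.9 and 46.6 CPM against 82.9, 94.6 and 86.2 in None (-0.76 ± 0.17, adjusted p = 0.00350).

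Pdia4 was at 37.6 and 43.9 CPM with Stattic and at 123, 145 and 94.5 in None (-1.57 ± 0.19, adjusted p = 7.29e-05), and Txndc5 fell by 0.96 ± 0.15 (0.000320). Pdia6, Pdia5 and Txndc11 fell by 1.32 ± 0.22, 1.22 ± 0.34 and 0.61 ± 0.17, and Pdia3, the partner of the lectins, was not called (-0.37 ± 0.18, adjusted p = 0.122). Calr, Canx and Ganab fell by 0.72 ± 0.17, 0.63 ± 0.19 and 0.64 ± 0.18, whereas Prkcsh, the partner of Ganab in glucosidase II, was not called (-0.10 ± 0.16, adjusted p = 0.674). The prolyl isomerases Ppib and Fkbp2 were not called either (adjusted p = 0.628 and 0.371).

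In ERAD, Derl2 was at 28.6 and 29.1 CPM with Stattic and at 53.2, 60.2 and 57.0 in None, 1.97-fold lower (-0.98 ± 0.15, adjusted p = 0.000311). Sel1l, the scaffold of HRD1, was at 46.5 and 57.4 CPM with Stattic and at 66.6, 124 and 99.5 in None (-0.90 ± 0.23, adjusted p = 0.00839). Syvn1 (0.13 ± 0.14) and Erlec1 (-0.03 ± 0.17) were not called (adjusted p = 0.505 and 0.907).

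**Figure D3:**
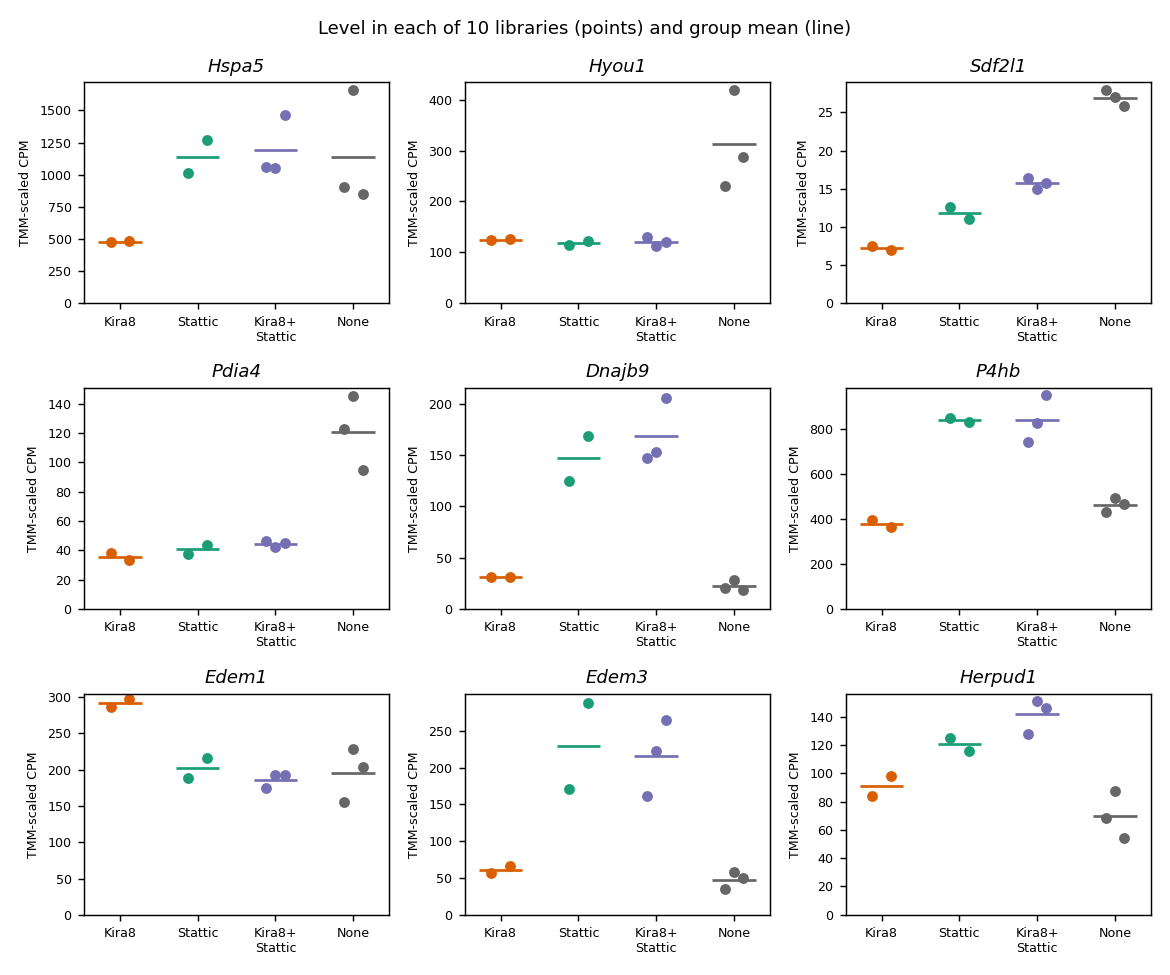
Points give the TMM-scaled CPM (vertical axis) of 9 members in each of the 10 libraries, by group, and lines give group means. Hspa5 is low only in the Kira8 libraries (474 and 482), Hyou1 and Pdia4 are lower in all 3 inhibitor groups than in None, and Dnajb9, P4hb and Edem3 are high in the Stattic and Kira8+Stattic libraries.

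With both inhibitors 19 members fell and 5 rose against the same None libraries, and 40.8% of all genes were called, 20.0% lower and 20.8% higher. The medians were -0.64 for folding genes, -0.08 for ERAD genes and 0.09 for all genes. The genes that rose were again Dnajb9, P4hb, Edem3, Herpud1 and Derl1, by 2.90 ± 0.21, 0.86 ± 0.14, 2.18 ± 0.26, 1.01 ± 0.17 and 0.52 ± 0.15. Dnajb9 reached 147, 153 and 206 CPM with both, against 20.5, 28.5 and 18.5 in None (adjusted p = 1.55e-06). Pdia4, Txndc5, Hyou1, Calr and Ganab fell by 1.45 ± 0.17, 0.94 ± 0.13, 1.38 ± 0.19, 0.67 ± 0.15 and 0.69 ± 0.16. Hspa5, Prkcsh and Edem1 were not called, with changes of 0.06 ± 0.25, 0.02 ± 0.15 and -0.08 ± 0.16. Groups did not overlap for 20 members lower and 6 higher, against 25.4% of all genes lower and 28.7% higher. Os9, Pdia3 and Uggt1 fell, by 0.55 ± 0.15, 0.46 ± 0.16 and 0.56 ± 0.20, and of these the groups of Uggt1 overlap. Of the 24 calls 19 held whichever library was left out, while that of Uggt1 held in 1 and that of Pdia3 in 5 of these 10 fits. In all 12 libraries 0 members were called and 4 had an unadjusted p under 0.05, against 11.5% of all genes, and the weighted voom fit called 23 members and 47.4% of all genes.

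Across these comparisons, which share the None libraries, 9 members were called lower in all 3, against 5.73% of all genes tested, and all 9 were folding genes, namely Hyou1, Dnajb11, Sdf2l1, Creld2, Pdia4, Pdia5, Pdia6, Txndc5 and Calr. Hspa5, Hsp90b1, Dnajc3 and Manf were called lower with Kira8 and in neither group given Stattic. A further 6 members were called in none of the 3, namely Ppib, Fkbp2, Fkbp14, Prkcsh, Syvn1 and Derl3. The share of all genes with either of these last patterns was not counted.

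Kira8+Stattic was set against Stattic to see the Kira8 change in cells that also had Stattic. Of the 36 members 0 were called by edgeR and 0 by DESeq2. Sdf2l1 alone had an unadjusted p under 0.05 in edgeR, beside 874 of the 21239 genes tested, so the members did not stand out. Over all genes 0.0141% were called, 0.00942% higher and 0.00471% lower. Groups did not overlap for 4 members higher (Sdf2l1, Herpud1, Derl2 and Derl3) and 1 lower (Uggt1), against 9.77% of all genes higher and 9.14% lower. Sdf2l1 was at 16.4, 14.9 and 15.8 CPM with both and at 12.6 and 11.0 with Stattic (0.41 ± 0.16, not called), a difference in the other direction from its change with Kira8 alone. In the fit of all 12 libraries it was -1.49 and not called. For Hspa5 the 95% interval ran from -0.53 to 0.66, for Pdia4 from -0.27 to 0.52 and for Hyou1 from -0.44 to 0.49. Leaving out Fkbp14, the 35 changes lay between -0.29 and 0.48 and their intervals within -0.73 and 1.15.

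The interaction, the Kira8 change with Stattic minus the Kira8 change without it, tests that difference directly and uses the Kira8 and None libraries of the first comparison again. It was called for 9 members, all folding genes and all positive, and for 0 ERAD genes, against 4.55% of all genes called positive, 3.97% negative and 8.52% in all. Sdf2l1 led with 2.32 ± 0.24 (adjusted p = 0.000719), then Pdia4 with 1.89 ± 0.27 (0.00260) and Pdia6 with 1.63 ± 0.31 (0.00937). Manf, Hyou1, Dnajb11, Creld2, Txndc5 and Calr had interactions of 1.38, 1.35, 1.29, 1.27, 0.95 and 0.85, of which those of Creld2 and Calr were lost with the replicate number as a block. The interaction of Hspa5 was 1.31 ± 0.40 and missed the threshold (adjusted p = 0.0611), and that of Dnajb9 was -0.27 ± 0.31 (0.666). Of the 9, 8 were also called lower with Stattic alone, among them Pdia4, which stood at 46.4, 42.1 and 44.8 CPM with both, 37.6 and 43.9 with Stattic, 38.0 and 33.3 with Kira8 and 123, 145 and 94.5 in None. Sdf2l1 and Pdia4 were called whichever of the 10 libraries was left out, with 3 calls when Kira8 replicate 1 was, and 2 when Kira8 replicate 3 or Stattic replicate 3 was. In those 3 fits 2.13%, 2.21% and 2.94% of all genes were called. DESeq2 called 16 members (14 positive) and 14.7% of all genes, and the fit of all 12 libraries called 0 with 5 at an unadjusted p under 0.05, against 16.9% of all genes.

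**Figure D4:**
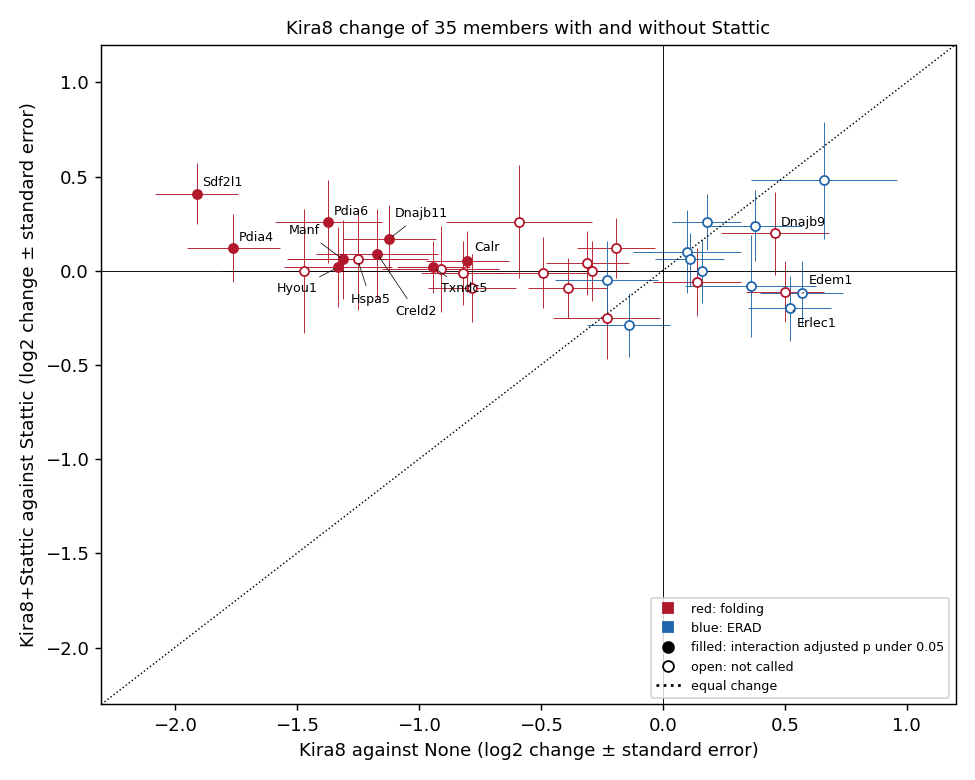
Each point is a member other than Fkbp14, with its log2 change for Kira8+Stattic against Stattic (vertical axis) and for Kira8 against None (horizontal axis), both ± standard error; red marks folding and blue ERAD genes, and filled points had an interaction with an adjusted p under 0.05. The changes spread between -1.91 and 0.66 without Stattic and between -0.29 and 0.48 with it, and the 9 filled points lie far from the dotted line of equal change.

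Kira8+Stattic was also set against Kira8, to give the Stattic change in cells that had Kira8. Here 8 members rose and 7 fell, and 30.7% of all genes were called, 14.7% higher and 16.0% lower. Groups did not overlap for 18 members higher and 11 lower, against 32.9% of all genes higher and 29.8% lower. Hspa5 rose, at 1057, 1050 and 1461 CPM with both against 474 and 482 with Kira8 (1.31 ± 0.29, adjusted p = 0.00478), and the groups do not overlap. Sdf2l1 rose by 1.13 ± 0.17, P4hb by 1.15 ± 0.16, Manf by 0.84 ± 0.22 and Dnajc3 by 0.53 ± 0.17. Dnajc10 fell, at 53.9, 48.6 and 41.3 CPM with both against 115 and 133 with Kira8 (-1.37 ± 0.16, adjusted p = 0.000113). Hyou1, Txndc5 and Calr were not called (-0.05 ± 0.21, 0.00 ± 0.14 and 0.12 ± 0.16).

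In ERAD, Edem3 rose by 1.82 ± 0.29 and Herpud1 by 0.63 ± 0.19, while Edem1, Edem2, Sel1l, Derl2 and Erlec1 fell, by 0.65 ± 0.17, 0.60 ± 0.21, 0.89 ± 0.22, 0.90 ± 0.14 and 0.76 ± 0.17. The ERAD median was -0.45, the folding median 0.32 and that of all genes 0.12. This comparison shares no library with Stattic against None. In both, Dnajb9, P4hb, Edem3 and Herpud1 were called higher and Dnajc10, Ganab, Edem2, Sel1l and Derl2 lower, which is 9 of the 21 members called with Stattic alone and 9 of the 15 called here. Over all genes, 50.6% of those called with Stattic alone and 64.3% of those called here were called the same way in both, so the members did not stand out. Sdf2l1 was called in both with opposite signs. Without Kira8 replicate 1 or 3, which leaves a single Kira8 library, fewer members were called here, and fewer of all genes too. In all 12 libraries 0 members were called, with 4 members at an unadjusted p under 0.05 against 12.1% of all genes.

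The sensors and factors upstream of the members were followed beside them. Eif2ak3 was at 115 and 132 CPM with Kira8, 146 and 195 with Stattic and 154, 172 and 215 with both, against 21.7, 29.5 and 29.5 in None (2.20 ± 0.20, 2.67 ± 0.20 and 2.74 ± 0.19 against None). Eif2ak3 encodes PERK, and Ddit3, the factor CHOP downstream of it, rose by 1.90 ± 0.18, 2.81 ± 0.18 and 3.01 ± 0.17, and Atf4 by 0.78 ± 0.17, 0.82 ± 0.17 and 1.02 ± 0.15. Ddit3 matched 2 Ensembl identifiers, and its values are those of the first, ENSMUSG00000025408. Xbp1 fell with Kira8 (-0.72 ± 0.18, adjusted p = 0.0146) and was not called with Stattic (-0.22 ± 0.18) or both (-0.09 ± 0.16), and it rose with both against Kira8 alone (0.63 ± 0.18, adjusted p = 0.0189). Gene counts do not separate its spliced from its unspliced mRNA. Ern1 rose with Kira8 (0.83 ± 0.27, adjusted p = 0.0495) and with both (0.72 ± 0.24, 0.0333), and Atf6 was called in none of the comparisons. Its relative Atf6b fell with Stattic (-1.19 ± 0.17) and with both (-1.22 ± 0.15) and was not called with Kira8 (-0.49 ± 0.17, adjusted p = 0.0631). In the fit of all 12 libraries 0 of these 7 genes were called in any comparison, beside at most 0.310% of all genes.

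The other genes of the pathway were counted in the same fit. Of 34 other ER folding genes 3 fell and 3 rose with Kira8, and their median was -0.19. Those that fell included Mesd, a chaperone of LDL receptor family proteins (-0.99 ± 0.17), Mogs, the glucosidase that trims the first glucose (-1.25 ± 0.25), and Erp44 (-0.72 ± 0.17), while Sdf2, a homologue of Sdf2l1, rose by 0.80 ± 0.18. Of 24 other ERAD genes 8 rose and 1 fell with Kira8, with a median of 0.30, beside 9.70% of all genes higher and 9.59% lower. Those that rose included Ufd1 and Nploc4, cofactors of the p97 ATPase that pulls proteins from the ER (0.80 ± 0.14 and 0.76 ± 0.19), and the ligase Rnf185 (0.78 ± 0.16). With Stattic 6 other folding genes rose and 9 fell, and 6 other ERAD genes rose and 5 fell, beside 20.1% of all genes higher and 18.9% lower. The other ERAD genes were led by Rnf185 (1.89 ± 0.16) and Trim13 (2.30 ± 0.27). With both, 7 and 9 other folding genes and 5 and 5 other ERAD genes rose and fell, beside 20.8% of all genes higher and 20.0% lower. In the fit of all 12 libraries 0 of these 34 and 0 of these 24 genes were called in any comparison.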

How the data were processed

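The authors deposited a table of raw counts per Ensembl gene in 12 libraries, whole numbers that are not normalized. Per the submitters' processing notes the build was mm10, and per the labels' protocols total RNA was taken with Trizol. Which aligner and counting program were used, and whether strand was read, is not given in the sources used here. Exons of 12 members overlap another gene, the most in Ppib (825 bases), Hsp90b1 (632), Txndc5 (535), Manf (326) and Derl2 (231), and such counts are uncertain. No pair of replicates matched within sampling noise.

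From the deposited counts, genes were kept by filterByExpr, scaled by TMM and tested with edgeR 4.0.16 (quasi-likelihood, a coefficient per group, Benjamini-Hochberg adjustment over all genes) in R 4.3.3. The fit used 10 libraries, and fits with limma 3.58.1, DESeq2 1.42.0, other scaling and filters, the replicate number as a block, all 12 libraries and each library left out were alternatives. Medians over members carry no test. How many calls over all genes held in every fit with a library left out was not counted. A count of 3 was 0.0387 to 0.0586 TMM-scaled CPM in the 10 libraries, for counting error only. Gene lengths and positions are from the GENCODE annotation of mm10.

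The members, lists, classes and the choice of 10 libraries were made with earlier results of these data known. All 36 members could be named, in full the 2 with the smallest adjusted p and the 1 with the largest per class and comparison. The rule also took 6 sensors and factors and up to 4 genes per other list. Atf6b was added outside it. The level of 1 marker gene is not reported here.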

Additional observations from a re-analysis of the deposited data

Results flagged for a closer look

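The Kira8 change differed with and without Stattic, by the interaction term in the fit of 10 libraries, for 9 members. Their interactions (log2) were 2.32 for Sdf2l1, 1.89 for Pdia4, 1.63 for Pdia6, 1.38 for Manf, 1.35 for Hyou1, 1.29 for Dnajb11, 1.27 for Creld2, 0.95 for Txndc5 and 0.85 for Calr. Outside the members it differed for Mesd (1.31), Ufd1 (-0.79), Eif2ak3 (-2.12) and Ddit3 (-1.70). Mesd was lower in every inhibitor group than in None, Ufd1 rose with Kira8, and Eif2ak3 and Ddit3 rose with each inhibitor and with both.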

How the results depend on the processing

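Adding Kira8 replicate 2 and Stattic replicate 2 (all 12 libraries) left 0 members called in the comparisons against None, in Kira8+Stattic against Kira8 and in the interaction. It reversed Sdf2l1 (Kira8 0.61, Stattic 0.69, Kira8+Stattic against Kira8 -1.41, interaction -2.10) and Pdia5 (Kira8 0.28, Stattic 0.27), and the cause was not tested. Folding minus ERAD for Stattic was -0.44 there, against -0.58. With Dnajb9, Dnajc10 and Txndc11 counted as ERAD it was -1.20 for Kira8 and -0.44 for Stattic; without Fkbp14, chosen after seeing the data, it moved by less than the spread between libraries (SD 0.13). DESeq2 called 16 interactions. Leaving out 1 library gave 7 to 17 calls for Kira8, 8 to 17 for Kira8+Stattic against Kira8 and 2 to 11 interactions, and a folding minus ERAD of -0.61 to -0.38 for Stattic, -0.38 without None replicate 2 and -0.39 without Stattic replicate 1. A group left with 1 library is assumed to vary like the others. Same-numbered libraries deviated together weakly (r 0.02 to 0.22 in 13 pairs, 2 above 0.1), and differently numbered ones had r from -0.15 to 0.07. Correlations this small cannot settle whether the numbers pair libraries. With the replicate number as a block, 17, 21 and 24 members were called against None, beside 20.8%, 38.0% and 42.1% of all genes. Kira8+Stattic gave 16 against Kira8 (31.4% of all genes) and 0 against Stattic (0.0188%). The block fit called 8 interactions (7 positive), beside 8.40% of all genes. Of the 9 interactions 7 held under the block, those of Creld2 (adjusted p = 0.0600) and Calr (0.0868) were lost, and the negative one of Edem1 was gained. Kira8 and Stattic have 2 libraries each, and 3 counts or fewer cannot be read as a level.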
